A study of Mus musculus with 7 samples.

Results

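The glucocorticoid receptor gene Nr3c1 and 7 genes known to be induced by it, Fkbp5, Tsc22d3, Klf9, Sgk1, Ddit4, Errfi1 and Cd163, were examined in neutrophils sorted from injured mouse livers. The members were chosen by gene symbol from knowledge of the pathway, with earlier results of these data known. All 8 were among the 16047 genes of the deposited table. Liver injury was induced by acetaminophen (acetaminophen-induced liver injury, AILI), and neutrophils were sorted 24 h later from the livers of 4 PBS-treated and 3 MC-21-treated mice. MC-21 is an antibody against CCR2, the chemokine receptor with which Ly6Chi monocytes leave the bone marrow, so that the MC-21 livers are labelled as deficient for these infiltrating monocytes. The comparison asks how the absence of these monocytes affects the neutrophils that share the injured tissue with them.

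Both groups were labelled C57BL/6, and the study's methods give male mice of 8 to 12 weeks of age. The sort gate named below includes absence of CX3CR1-GFP, a reporter of Cx3cr1gfp/+ mice, and the labels do not say whether the sorted mice carried that allele. All mice were fasted for 12 h before they received 300 mg/kg of acetaminophen, so the fast and the injury were common to both groups. Injections of 400 µL of medium holding 29 µg/mL of MC-21 began 12 h before acetaminophen and were repeated every 24 h. The study's methods give this schedule for MC-21 and no separate one for PBS. The control injection was PBS, not medium with another antibody. From each liver 50000 cells with the surface phenotype CD11b+Ly6CloCX3CR1-GFP-Ly6G+ were sorted, and 1 3′ RNA-seq library was made per liver. The labels number the PBS livers 5 to 8 and the MC-21 livers 2 to 4, and these numbers name the replicates below. Values are RPKM (reads per kilobase of transcript, scaled to the number of mapped reads of the library). In a transcript of 1 kb, 1 RPKM stood for 2.77, 3.33, 2.66 and 3.96 reads in PBS replicates 5 to 8 and for 3.57, 1.59 and 2.78 reads in MC-21 replicates 2 to 4, as read from the steps between low values.

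Glucocorticoids are steroid hormones of the adrenal gland whose blood level rises in fasting and in acute illness. The receptor rests in the cytoplasm in a complex with HSP90 and its partners, and on binding the hormone it enters the nucleus. There it can bind glucocorticoid response elements, palindromes of a pair of hexamers, and raise the transcription of nearby genes, while it restrains inflammatory genes mainly through other transcription factors. In neutrophils, glucocorticoids are known to prolong survival and to raise the decoy receptor IL1R2. Fkbp5 encodes a co-chaperone that lowers the receptor's affinity for hormone and so closes a feedback loop, and its transcript is widely used as a readout of receptor activity.

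The consensus palindrome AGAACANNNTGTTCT, where N is any base, is its own reverse complement, so 1 search covers both strands. It was sought in the mm9 genome from 10000 bases before to 10000 bases after each of the 8 genes. Only Fkbp5 and Sgk1 held it, with 3 matches between them, and they are shown because these genes lie at opposite ends of the comparison described below. Each is printed 5′ to 3′ on the strand of its gene with 30 bases on either side, and the capitals mark the palindrome. The first Fkbp5 match (chr17:28557236-28557310, minus strand) lies 97196 bases into the gene and in no annotated exon, within the span of 4 of its 5 transcripts. The second (chr17:28579334-28579408, minus strand) lies 75098 bases into the gene, in no exon and 704 bases before the nearest annotated transcript start. The Sgk1 match (chr10:21713477-21713551, plus strand) lies in no exon, 182 bases before the nearest start of the 13 Sgk1 transcripts and 111524 bases into the longest gene model.
Fkbp5, first: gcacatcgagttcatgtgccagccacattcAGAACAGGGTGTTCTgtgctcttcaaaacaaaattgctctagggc
Fkbp5, second: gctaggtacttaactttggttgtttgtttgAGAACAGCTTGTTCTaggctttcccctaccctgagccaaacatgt
Sgk1: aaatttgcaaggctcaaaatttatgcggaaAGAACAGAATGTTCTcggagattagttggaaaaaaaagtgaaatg

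The palindrome is rare in windows of these sizes. Among 8686 tested genes with mm9 coordinates, a region of the 138430 bases searched for Fkbp5 held at least 1 match in 257 (2.96%) and at least 2 in 3 (0.0345%), Fkbp5 included. A region of the 137720 bases searched for Sgk1 held at least 1 match in 255 (2.94%). RefSeq promoter windows on GRCm38.p6, of 300 bases each, were found for 7 of the 8 genes, and of all 32851 windows 3 held the palindrome (0.0091%), 1 of them that of Sgk1. The looser form AGNACANNNTGTNCT gave no further match near any of the 8 genes. A match is a run of letters and not a bound site, and the genes without one may be regulated through other sequences.

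The receptor and 5 of its targets were well expressed in these cells, and Errfi1 and Cd163 were near the floor of the libraries. In PBS neutrophils the order by mean level was Tsc22d3 with 66.3 ± 10 RPKM (SD, n = 4), Sgk1 with 48.8 ± 10 RPKM, Ddit4 with 34.5 ± 16 RPKM, Fkbp5 with 26 ± 5.13 RPKM, Nr3c1 with 20.3 ± 4.02 RPKM and Klf9 with 10.5 ± 0.524 RPKM. Neighbours in this order overlapped between libraries from Tsc22d3 down to Nr3c1, and Klf9 lay below every Nr3c1 value. In MC-21 neutrophils Tsc22d3 again had the highest mean with 73.2 ± 17.9 RPKM (SD, n = 3), and Fkbp5 followed with 60.4 ± 17.6 RPKM. These 2 overlapped, and in MC-21 replicate 4 Fkbp5 (80.4 RPKM) was above Tsc22d3 (67.8 RPKM). Every MC-21 value of Fkbp5 was above every MC-21 value of Sgk1, which had 32.7 ± 8.65 RPKM in these libraries. Since 3′ reads come from the end of a transcript, RPKM levels of different genes are only roughly per length.

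**Figure D1:**
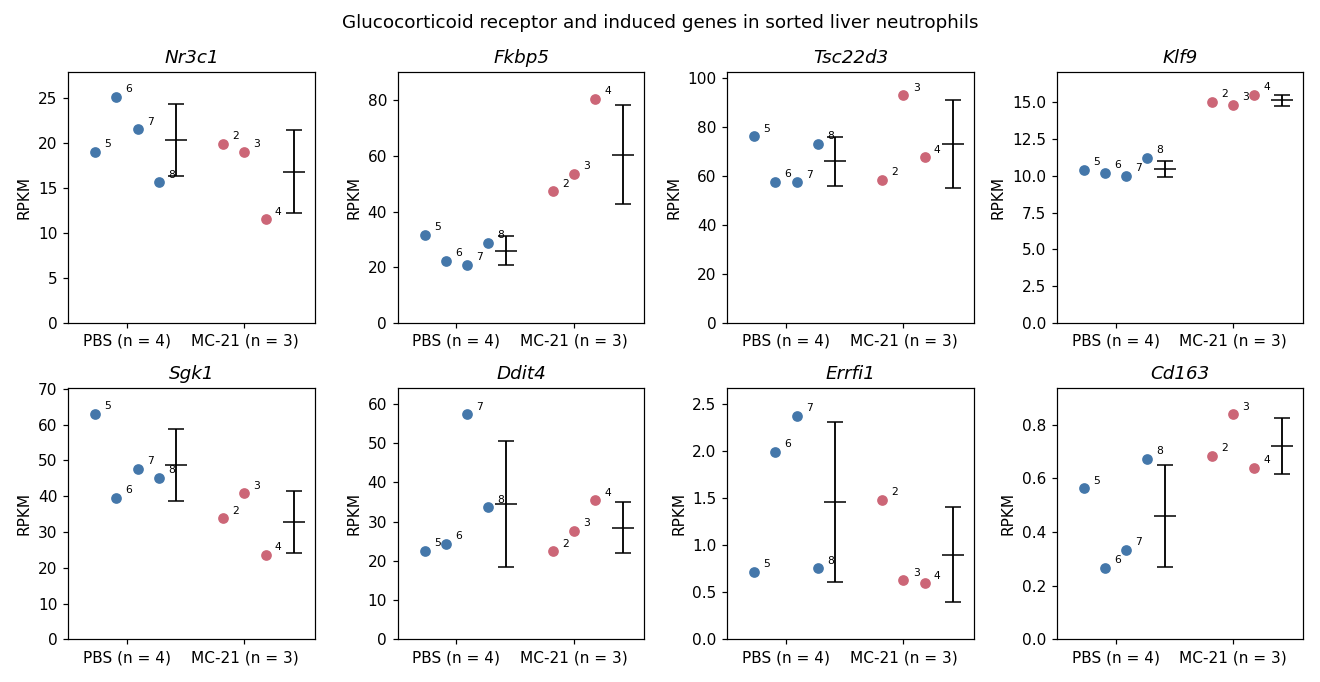
RPKM of the 8 genes in each library (points, with the number of the mouse) with the mean and SD of each group (bars), on a separate vertical axis from 0 for each gene. Fkbp5 and Klf9 show all 3 MC-21 libraries above all 4 PBS libraries, and the other 6 genes overlap between the groups.

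The comparison did not move the 8 genes in 1 direction. On log2(RPKM + 1), 7 of them had a mean of at least 1 RPKM and were tested with limma among 9594 genes. Fkbp5 was 2.25-fold and Klf9 1.41-fold higher in MC-21 neutrophils, Sgk1 was 1.49-fold lower, and Nr3c1, Tsc22d3, Ddit4 and Errfi1 did not pass an unadjusted p of 0.05. With Benjamini-Hochberg adjustment across these 9594 genes, an adjusted p under 0.05 in limma was reached by 0 of the 7 and by 60 of all genes (0.625%), and 3 of the 7 had an unadjusted p under 0.05, where 14.7% of all genes did. Of these 3, 2 were higher (3.59% of all genes) and 1 was lower (11.2% of all genes). An unadjusted p under 0.05 together with at least a 2-fold change, the cutoffs of the study, was met by 1 of the 7, Fkbp5, and by 2.7% of all genes. The groups did not overlap in 2 of the 7, Fkbp5 and Klf9, against 13.3% of all genes, and both were higher in MC-21 neutrophils, a pattern of 3.1% of all genes, whereas 10.2% of all genes had every MC-21 library lower. The median log2 fold change of the 7 genes was -0.19, and that of all genes tested was -0.15, so that the changes of the 7 genes are also given below relative to this general shift.

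**Figure D2:**
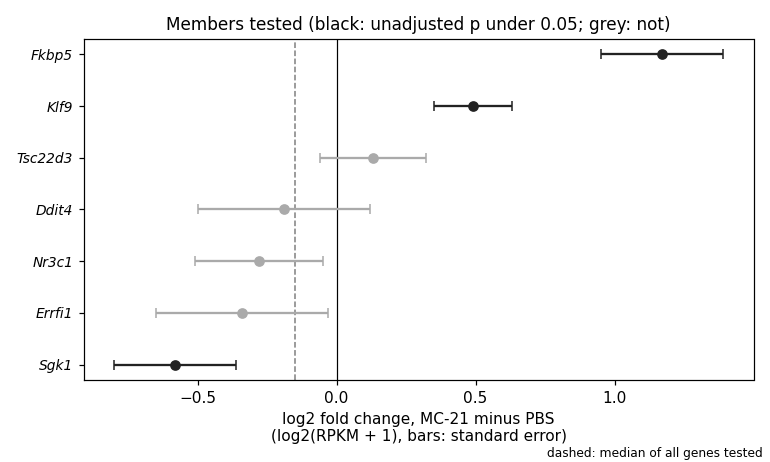
Log2 fold change (MC-21 minus PBS, on log2(RPKM + 1)) of the 7 genes tested, with standard errors as bars, black where the unadjusted p of limma was under 0.05. Fkbp5 at 1.17 and Klf9 at 0.49 lie to the right, Sgk1 at -0.58 lies to the left, and the dashed line marks the median of all genes tested at -0.15.

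Nr3c1 encodes the receptor itself and lies on chromosome 18 (mm9, 39570199 to 39650955, minus strand). It had 19, 25.1, 21.5 and 15.6 RPKM in PBS replicates 5 to 8 and 19.9, 19 and 11.5 RPKM in MC-21 replicates 2 to 4. The groups overlapped, and MC-21 replicate 4 was the lowest of the 7 libraries. The log2 fold change was -0.28 with a standard error (SE) of 0.23 (adjusted p = 0.624 from limma), or -0.13 relative to the median of all genes. Without MC-21 replicate 4 the log2 fold change of Nr3c1 was -0.04. The chaperones that hold the receptor ready for hormone gave a similar picture, with 0 of 9 genes at an adjusted p under 0.05 in limma (0.625% of all genes) and 1 of 9 at an unadjusted p under 0.05, a share close to the 14.7% of all genes. Fkbp4, which was picked after its values were seen, is that gene and encodes the co-chaperone that competes with FKBP5 for the receptor complex and favours its entry into the nucleus. Fkbp4 had 21.4, 24.8, 33.1 and 34.6 RPKM in PBS replicates 5 to 8 and 24.4, 15.4 and 18.1 RPKM in MC-21 replicates 2 to 4. The MC-21 values were on the low side and overlapped with the PBS values (log2 fold change -0.54, SE 0.22, limma adjusted p = 0.316, unadjusted p = 0.0378), and the unadjusted p stayed under 0.05 in 7 of the 13 alternative settings. The most abundant genes of this list, the HSP70 family gene Hspa8 and the HSP90 gene Hsp90ab1, had log2 fold changes of 0.21 and -0.24 (adjusted p = 0.565 and 0.594 from limma).

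A second pattern crossed the groups. Nr3c1 was highest in PBS replicates 6 and 7 and MC-21 replicate 2, and the same 3 libraries were the highest for Errfi1 and for several genes of the receptor machinery, which were picked after their values were seen. Ptges3, which encodes the HSP90 partner p23, had 30.9, 30.4 and 29.2 RPKM in these 3 libraries and 9.62, 6.85, 12.2 and 9.2 RPKM in PBS replicates 5 and 8 and MC-21 replicates 3 and 4. Ppid, which encodes the receptor co-chaperone cyclophilin 40, had 9.21, 12 and 14.9 RPKM in the same 3 libraries and between 1.09 and 3.51 RPKM in the other 4. The coactivator gene Ep300 had 4.36, 5.93 and 5.44 RPKM in them and between 0.868 and 2.14 RPKM elsewhere. The pattern was not particular to the receptor machinery. Il1a (4.87, 3.05 and 9.08 RPKM) and Ptgs2 (36.4, 18.9 and 45.8 RPKM), of the inflammatory list below and picked in the same way, were also highest there. What these libraries share is not given in the labels, and the part of this pattern in the Nr3c1 and Errfi1 values was not tested. Fkbp5, Klf9, Tsc22d3 and Sgk1 did not follow it, and neither did Hspa8 and Hsp90ab1 of the receptor complex.

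Fkbp5 (mm9 chromosome 17, 28536040 to 28654469, minus strand) stood furthest from the other members. It had 31.7, 22.3, 21 and 28.9 RPKM in PBS replicates 5 to 8 and 47.2, 53.5 and 80.4 RPKM in MC-21 replicates 2 to 4. Every MC-21 library lay above every PBS library, and MC-21 replicate 4 was the highest by a wide margin. The log2 fold change was 1.17 with a standard error of 0.22 (adjusted p = 0.0572 from limma, unadjusted p = 0.000441), above that of 99.2% of the genes tested, and 1.31 relative to the median of all genes. The adjusted p fell under 0.05 with median centring of the libraries (0.0428) and with the filter raised to a mean of 5 RPKM (0.0482). Without MC-21 replicate 4 the log2 fold change was 0.95, which is below 2-fold.

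Klf9 (mm9 chromosome 19, 23215716 to 23241401, plus strand) encodes a Krüppel-like transcription factor that is induced by glucocorticoids in many tissues. It had 10.4, 10.2, 10 and 11.2 RPKM in PBS replicates 5 to 8 and 15, 14.8 and 15.5 RPKM in MC-21 replicates 2 to 4. The libraries of each group lay close together and the groups did not overlap. The change was small and even, with a log2 fold change of 0.49 and a standard error of 0.14 (adjusted p = 0.182 from limma, unadjusted p = 0.00736), or 0.64 relative to the median of all genes. Under the 13 alternative settings its log2 fold change stayed between 0.47 and 0.66, with adjusted p between 0.0995 and 0.375. An estimated 77 to 175 reads per library stood behind these values.

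Tsc22d3 (mm9 chromosome X, 137074067 to 137135198, minus strand) encodes GILZ, the glucocorticoid-induced leucine zipper protein that restrains NF-κB and AP-1. It had 76.3, 57.8, 57.5 and 73.4 RPKM in PBS replicates 5 to 8 and 58.7, 93.2 and 67.8 RPKM in MC-21 replicates 2 to 4. The groups overlapped, and the highest value belonged to MC-21 replicate 3, the shallowest library. The log2 fold change was 0.13 with a standard error of 0.19 (adjusted p = 0.795 from limma), or 0.27 relative to the median of all genes, and it was -0.06 without MC-21 replicate 3.

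Within PBS neutrophils Fkbp5 and Tsc22d3 put the 4 libraries in the same order, with replicate 5 highest, then 8, 6 and 7, and in MC-21 neutrophils they did not share an order. The summed endothelial markers described below had this PBS order too, with 2327, 2023, 1638 and 1035 RPKM in replicates 5, 8, 6 and 7. The part of endothelial RNA in the shared order and in the ratio that follows was not tested. The ratio of Fkbp5 to Tsc22d3, which was chosen after the values were seen and is given as a description, was 0.415, 0.386, 0.365 and 0.394 in PBS replicates 5 to 8. It was 0.805, 0.574 and 1.19 in MC-21 replicates 2 to 4. The PBS ratios thus spread little (0.39 ± 0.0204, SD, n = 4) and all lay below the MC-21 ratios (0.855 ± 0.309, SD, n = 3), a 2.1-fold difference of the mean log2 ratios. The ratio of the co-chaperone genes Fkbp5 to Fkbp4, chosen in the same way, was 1.48, 0.901, 0.634 and 0.836 in PBS replicates 5 to 8 and 1.93, 3.48 and 4.44 in MC-21 replicates 2 to 4. These ratios did not overlap either, and their mean log2 values differed 3.39-fold.

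**Figure D3:**
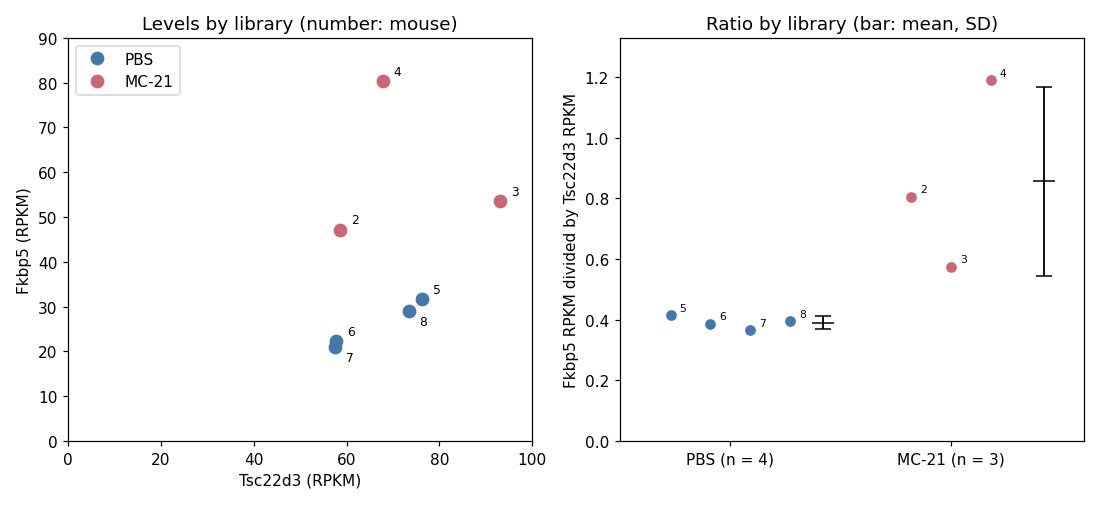
Left, Fkbp5 against Tsc22d3 in RPKM for each library, blue for PBS and red for MC-21, with the number of the mouse. Right, the ratio of Fkbp5 to Tsc22d3 in each library with the mean and SD of each group, which spans 0.365 to 0.415 in PBS and 0.574 to 1.19 in MC-21 neutrophils.

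Sgk1 (mm9 chromosome 10, 21601990 to 21719709, plus strand) encodes the serum- and glucocorticoid-regulated kinase, which also responds to serum, osmotic stress and insulin. It had 63, 39.5, 47.7 and 45.1 RPKM in PBS replicates 5 to 8 and 33.8, 40.8 and 23.6 RPKM in MC-21 replicates 2 to 4. Among the MC-21 libraries, replicate 3 lay above PBS replicate 6, so the groups overlapped, and the lowest and highest values were those of MC-21 replicate 4 and PBS replicate 5. The log2 fold change was -0.58 with a standard error of 0.22 (adjusted p = 0.284 from limma, unadjusted p = 0.0271), and -0.43 relative to the median of all genes. The unadjusted p was no longer under 0.05 with median centring (log2 fold change -0.41), without PBS replicate 5 (-0.45) or without MC-21 replicate 4 (-0.36). Sgk1, which carries the palindrome shown above next to a transcript start, thus lay on the other side of 0 from Fkbp5, which carries 2.

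Ddit4 (mm9 chromosome 10, 59412423 to 59414518, minus strand) encodes REDD1, an inhibitor of the growth kinase complex mTORC1 that is also induced by hypoxia. It had 22.5, 24.4, 57.3 and 33.6 RPKM in PBS replicates 5 to 8 and 22.4, 27.6 and 35.4 RPKM in MC-21 replicates 2 to 4. PBS replicate 7 was far above the other libraries, and the groups overlapped throughout. The log2 fold change was -0.19 with a standard error of 0.31 (adjusted p = 0.807 from limma), or -0.05 relative to the median of all genes, and it was 0.08 without PBS replicate 7.

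The other 2 targets rested on few reads. Errfi1 (mm9 chromosome 4, 150228028 to 150243001, plus strand), which encodes an inhibitor of the EGF receptor, had 0.719, 1.99, 2.37 and 0.753 RPKM in PBS replicates 5 to 8 and 1.48, 0.625 and 0.596 RPKM in MC-21 replicates 2 to 4. These values stand for an estimated 3 to 20 reads, with the highest in PBS replicates 6 and 7 and MC-21 replicate 2, and the groups overlapped (log2 fold change -0.34, SE 0.31, limma adjusted p = 0.664, and -0.19 relative to the median of all genes). Cd163 (mm9 chromosome 6, 124254669 to 124280545, plus strand) encodes the hemoglobin scavenger receptor of macrophages, which glucocorticoids raise strongly in monocytes. It had 0.564, 0.267, 0.335 and 0.674 RPKM in PBS replicates 5 to 8 and 0.685, 0.839 and 0.64 RPKM in MC-21 replicates 2 to 4, an estimated 4 to 12 reads. With a mean under 1 RPKM it was outside the fit, and the groups overlapped (two-sided exact permutation test, p = 0.143, where 0.0286 is the smallest that 4 libraries against 3 allow).

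A list of 30 other genes known to be induced by glucocorticoids put the members in context, and 29 of them were in the table, without Hif3a, and 25 were tested. In limma 0 of the 25 had an adjusted p under 0.05, and 7 had an unadjusted p under 0.05, all of them higher in MC-21 neutrophils (3.59% of all genes). The median log2 fold change of the 25 genes was 0.12, with 17 of 25 above 0 (68%), against -0.15 and 30.6% for all genes tested. Of the lists described below, the median was 0.50 with 71.4% above 0 for inflammatory genes that glucocorticoids repress and 0.64 with 75% above 0 for neutrophil markers, and it was below 0 for the markers of other cells. The 7 genes were Pik3ip1, Mt2, Mt1, Il1r2, Per1, Nfkbia and Cebpd, with log2 fold changes of 1.65, 1.33, 1.09, 0.98, 0.61, 0.53 and 0.40, of which Mt2 and Nfkbia are named only for this count. In 6 of the 7 the highest library was MC-21 replicate 4, as for Fkbp5 and Klf9. Without that replicate 6 of the 7 still had an unadjusted p under 0.05, and the log2 fold changes of Mt1 and Mt2 were 0.67 and 0.83. Over the 13 alternative settings the unadjusted p stayed under 0.05 in 6 for Per1, in 10 for Nfkbia and in all 13 for the other 5 genes.

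Pik3ip1 encodes an inhibitor of PI3-kinase. It had 9.19, 2.54, 4.36 and 5.63 RPKM in PBS replicates 5 to 8 and 10.2, 19 and 28.7 RPKM in MC-21 replicates 2 to 4. The groups did not overlap, although MC-21 replicate 2 and PBS replicate 5 were close (SE 0.40, limma adjusted p = 0.114). Mt1 encodes a metallothionein, a zinc-binding protein of the acute stress response, and had 965, 652, 833 and 721 RPKM in PBS replicates 5 to 8 and 1124, 1377 and 2989 RPKM in MC-21 replicates 2 to 4. Every MC-21 library was higher, and replicate 4 stood far above the rest (SE 0.30, limma adjusted p = 0.165). Without replicate 4 its log2 fold change was 0.67.

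Il1r2, Cebpd and Per1 fell outside the rule for named genes and were chosen after their values were seen. Il1r2 is also on the list of neutrophil markers below and is counted in both lists. Encoding the decoy receptor for IL-1, it had 273, 224, 380 and 414 RPKM in PBS replicates 5 to 8 and 561, 520 and 813 RPKM in MC-21 replicates 2 to 4, with no overlap (SE 0.24, limma adjusted p = 0.117). Cebpd, which encodes a myeloid transcription factor, had 250, 235, 232 and 220 RPKM in PBS replicates 5 to 8 and 303, 288 and 340 RPKM in MC-21 replicates 2 to 4, again with no overlap (SE 0.12, limma adjusted p = 0.19). Per1, a circadian clock gene, overlapped between the groups, with 16.1, 20.5, 33.1 and 26.6 RPKM in PBS replicates 5 to 8 and 35.7, 27.8 and 46.5 RPKM in MC-21 replicates 2 to 4 (adjusted p = 0.327 from limma).

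Dusp1 and Zfp36, the genes of the induced list with the highest mean over all libraries, did not pass the test, whereas Mt1 and Nfkbia, which were above Zfp36 in the mean of the MC-21 libraries, were among the 7 genes above. Dusp1, the MAP kinase phosphatase that is among the best known glucocorticoid targets, had 2381, 2755, 2791 and 2145 RPKM in PBS replicates 5 to 8 and 2825, 2452 and 2267 RPKM in MC-21 replicates 2 to 4. The group means were 2518 ± 310 RPKM (SD, n = 4) and 2515 ± 284 RPKM (SD, n = 3), and the log2 fold change was 0.00 with a standard error of 0.14 (adjusted p = 0.998 from limma). Zfp36, which encodes an RNA-binding protein that shortens the life of cytokine mRNA, averaged 1868 ± 272 RPKM in the PBS libraries (SD, n = 4) and 1687 ± 517 RPKM in the MC-21 libraries (SD, n = 3), with overlap (log2 fold change -0.18, SE 0.21, limma adjusted p = 0.728). Without MC-21 replicate 4 the log2 fold change of Zfp36 was 0.03.

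**Figure D4:**
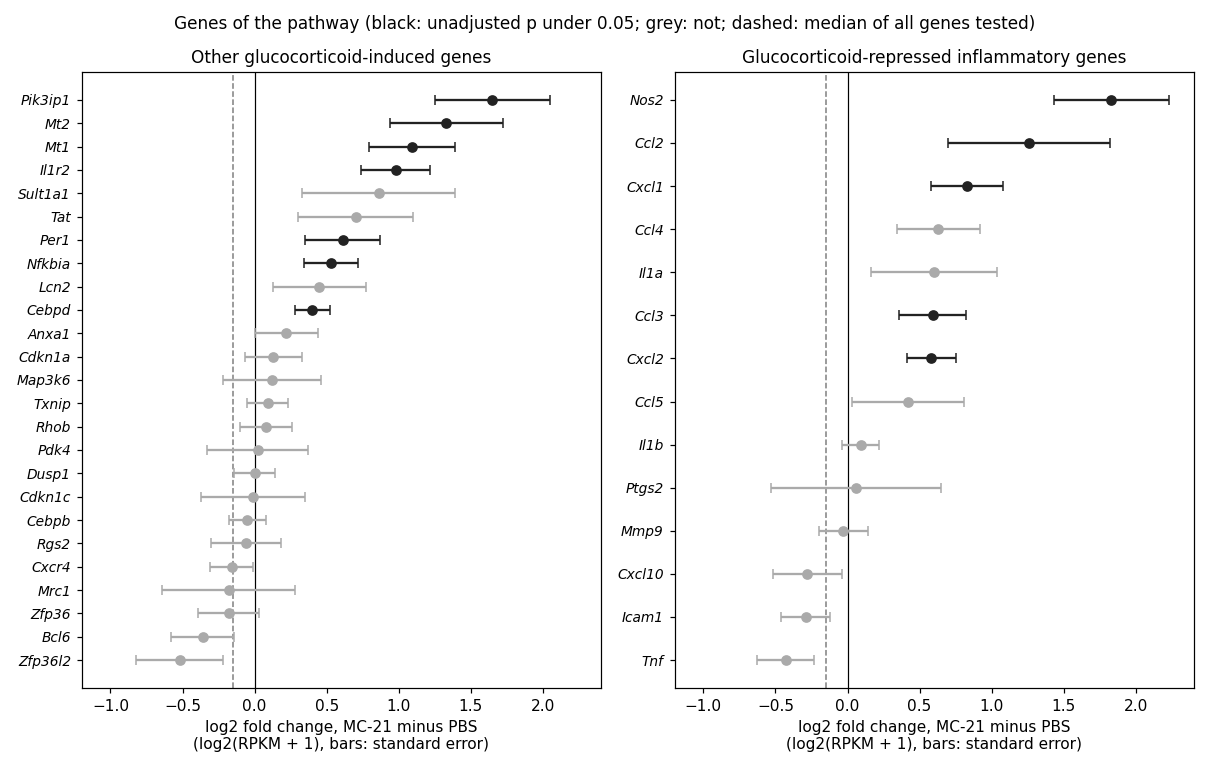
Log2 fold change (MC-21 minus PBS, on log2(RPKM + 1)) of 25 other glucocorticoid-induced genes (left) and 14 inflammatory genes that glucocorticoids repress (right), with standard errors as bars, black where the unadjusted p of limma was under 0.05. All 7 black points on the left and all 5 on the right lie above 0, and the dashed line marks the median of all genes tested at -0.15.

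Among inflammatory genes that glucocorticoids are known to repress, those with an unadjusted p under 0.05 were higher in MC-21 neutrophils. Of 18 listed genes 14 were tested, with 0 at an adjusted p under 0.05 in limma and 5 at an unadjusted p under 0.05, all 5 higher in MC-21 neutrophils (3.59% of all genes). These were the inducible nitric oxide synthase gene Nos2 and the chemokine genes Ccl2, Ccl3, Cxcl1 and Cxcl2, of which Ccl2, Ccl3 and Cxcl1 are named only for this count. The unadjusted p stayed under 0.05 in 6, 9, 13 and 12 of the 13 alternative settings for Ccl2, Ccl3, Cxcl1 and Cxcl2. Nos2 had 1.6, 1.75, 1.49 and 2.12 RPKM in PBS replicates 5 to 8 and 7.3, 4.24 and 20.2 RPKM in MC-21 replicates 2 to 4, with no overlap and replicate 4 again the highest (log2 fold change 1.83, SE 0.40, limma adjusted p = 0.0836). The adjusted p of Nos2 was between 0.0445 and 0.235 over the alternatives and fell under 0.05 in 1 of them, without MC-21 replicate 3. Cxcl2, a chemokine that draws neutrophils, averaged 10503 ± 2306 RPKM in the PBS libraries (SD, n = 4) and 15385 ± 1049 RPKM in the MC-21 libraries (SD, n = 3), with no overlap (log2 fold change 0.58, limma adjusted p = 0.194). Its log2 fold change was -0.00 with quantile normalization, which gives the most abundant genes the same values in every library. Il1b had 7000 ± 880 RPKM and 7416 ± 724 RPKM, which overlapped, and Tnf, picked after its values were seen, had 120 ± 20.6 RPKM and 89.7 ± 23.8 RPKM (log2 fold change -0.43, limma adjusted p = 0.364). Tnf was lower at an unadjusted p under 0.05 in 2 of the 13 alternatives.

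Genes for steroid handling, 2 of 6 of them tested, and for the cofactors of the receptor gave no call, although the unadjusted p was under 0.05 in 1 of the 13 alternatives for Hsd11b1 and in 3 for Ncoa3. Hsd11b1, whose enzyme regenerates active glucocorticoid inside cells, had 8.76, 28.7, 14.1 and 9.78 RPKM in PBS replicates 5 to 8 and 23.1, 17 and 16.2 RPKM in MC-21 replicates 2 to 4. The overlap rested on PBS replicate 6, the highest of all libraries, and the other 3 PBS values lay below the MC-21 values (log2 fold change 0.41, SE 0.35, limma adjusted p = 0.641, and a log2 fold change of 0.21 to 0.74 over the alternatives, the highest without PBS replicate 6). Nr3c2 and Hsd11b2 fell outside the rule for named genes and are given for their role. The mineralocorticoid receptor gene Nr3c2, which binds the same hormone, was above 0 in 1 library, with 0.0885 RPKM in PBS replicate 5, and Hsd11b2, whose enzyme inactivates the hormone, was at most 0.583 RPKM. Of 10 coregulator genes 7 were tested, and 0 had an adjusted (0.625% of all genes) or an unadjusted p under 0.05 (14.7% of all genes) in limma. The groups did not overlap in 3 of the 7, against 13.3% of all genes, 1 of them higher (3.1% of all genes) and 2 lower (10.2% of all genes). The coactivator gene Ncoa3 was higher in every MC-21 library (12.5 ± 3.01 RPKM, SD, n = 4, against 17.2 ± 1.67 RPKM, SD, n = 3, adjusted p = 0.344 from limma). The chromatin remodeller gene Smarca4 and the Mediator subunit gene Med1 were lower in every MC-21 library, at 16.5 ± 3.04 against 13.2 ± 0.656 RPKM and at 3.55 ± 0.357 against 2.64 ± 0.17 RPKM (SD, n = 4 and 3, adjusted p = 0.469 and 0.437 from limma). Med1 was chosen after its values were seen.

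Genes whose levels ran most like those of Fkbp5 were named by Pearson's r of log2(RPKM + 1) over the 7 libraries, which are shared by all genes and form 2 groups, so that r is a description. The 5 with the highest r were AA467197 (0.974), Tmigd3 (0.971), Fabp4 (0.966), Pip4k2a (0.966) and Tiparp (0.963), and 56 genes had r of at least 0.9. Fabp4, which encodes a fatty acid-binding protein, had 953, 617, 671 and 877 RPKM in PBS replicates 5 to 8 and 2005, 1476 and 2596 RPKM in MC-21 replicates 2 to 4 (log2 fold change 1.36, limma adjusted p = 0.0312). Fabp4 followed the order of Fkbp5 among the PBS libraries except for replicates 6 and 7. For Tsc22d3 the 5 genes were 2010111I01Rik (0.971), Oit3 (0.970), Ufd1l (0.965), Sap30bp (0.960) and Dnd1 (0.955), and none of them was also among the 5 of Fkbp5.

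The sorted cells carried the markers of neutrophils. S100a9, a calprotectin subunit gene, was the most abundant of 12 neutrophil markers with 12275 to 25041 RPKM, and the granulocyte colony-stimulating factor receptor gene Csf3r, picked after its values were seen, averaged 301 ± 27.6 RPKM in the PBS libraries (SD, n = 4) and 298 ± 5.6 RPKM in the MC-21 libraries (SD, n = 3). Of the 12 markers 6, Il1r2 among them, were higher (3.59% of all genes) and 1 was lower (11.2% of all genes) at an unadjusted p under 0.05 in limma. The unadjusted p stayed under 0.05 in all 13 alternatives for Il1r2, Fpr1, S100a8 and Cxcr1, in 8 for Retnlg and for Camp, the marker that was lower, and in 6 for S100a9, whose log2 fold change was -0.00 at the lowest. The formyl peptide receptor gene Fpr1 was the 1 marker with an adjusted p under 0.05 (0.625% of all genes), and it kept this in 4 of the 13 alternatives (0.0184 to 0.123). The 12 markers summed to 30501, 17861, 25719 and 20204 RPKM in PBS replicates 5 to 8 and to 27646, 35354 and 41305 RPKM in MC-21 replicates 2 to 4. The highest sum belonged to MC-21 replicate 4, as did the highest Fkbp5 and Klf9 values. Most of the sum came from S100a9, S100a8 and Retnlg in every library, so it says little of the other markers. Ly6g, the gene of the sort marker, had 16.3 to 69 RPKM, and Ltf had 1.06 to 10.2 RPKM. Both were picked after their values were seen. Across the 7 libraries this sum ran with Fkbp5 (Pearson's r = 0.83, Spearman's rho = 0.86, and r = 0.61 without the 2 libraries farthest from the median) and with Klf9 (0.70, 0.68 and 0.45), as a description of libraries that form 2 groups. The part of this in those results was not tested.

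Transcripts of other cells were present too. Of 12 monocyte and macrophage markers 11 were tested, and 8 were lower in MC-21 neutrophils at an unadjusted p under 0.05 in limma (11.2% of all genes), 5 of them at an adjusted p under 0.05 (0.625% of all genes), namely Ccr2, C1qa, C1qb, C1qc and Fcgr1. The adjusted p stayed under 0.05 in all 13 alternatives for C1qb, in 12 for Fcgr1, in 10 for C1qa, in 7 for C1qc and in 5 of 12 for Ccr2. These 12 markers summed to 578, 662, 694 and 668 RPKM in PBS replicates 5 to 8 and to 360, 342 and 302 RPKM in MC-21 replicates 2 to 4, with Cd68 the most abundant by the mean over all libraries and C1qb by that of the PBS libraries, and Ccr2, Mertk and Ms4a7 were at 0 in at least 1 library. The sums were lower in the libraries where Fkbp5 and Klf9 were higher and Sgk1 was mostly lower, and their part in these results was not tested. As the sums fall into separate clusters by group, no correlation across the 7 libraries is given for them. In bulk libraries fewer cells of a type and less RNA per cell cannot be told apart.

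Liver sinusoidal endothelial transcripts were abundant, with Clec4g at 474 to 1539 RPKM. The 7 endothelial markers summed to 2327, 1638, 1035 and 2023 RPKM in PBS replicates 5 to 8 and to 1357, 2108 and 1178 RPKM in MC-21 replicates 2 to 4, and 0 of the 7 had an adjusted (0.625% of all genes) or an unadjusted p under 0.05 (14.7% of all genes) in limma. Tsc22d3 ran with this sum across the 7 libraries (Pearson's r = 0.72, Spearman's rho = 0.82, and r = 0.64 without the 2 libraries farthest from the median). For Sgk1 the same values were r = 0.56, rho = 0.43 and r = 0.90 without those 2 libraries, for Fkbp5 -0.07, 0.18 and -0.50, and for Klf9 -0.14, 0.00 and -0.43. PBS replicates 5 and 8 and MC-21 replicate 3 were the 3 highest libraries both for the endothelial sum and for Tsc22d3. Within PBS neutrophils the endothelial sum put the libraries in the order of both Fkbp5 and Tsc22d3, with replicate 5 highest, then 8, 6 and 7. Within MC-21 neutrophils its order was that of neither gene. The values of Fkbp5 across all 7 libraries also hold the difference between the groups. The part of endothelial RNA in the Fkbp5, Tsc22d3 and Sgk1 values was not tested. The 8 hepatocyte markers summed to between 217 and 491 RPKM and overlapped between the groups, with Apoa1, at 46.4 to 126 RPKM, the most abundant by the mean over all libraries and Trf by that of the MC-21 libraries. Kupffer cell markers, 7 with Cd163 included, summed to between 60.1 and 91.5 RPKM in PBS and between 37.7 and 65.3 RPKM in MC-21 neutrophils, with Marco the most abundant and Vsig4 and Folr2 at 0 in at least 1 library. Cd163 was outside the limma fit. Of the 4 tested, 2 (Cd5l and Marco) were lower at an unadjusted p under 0.05 in limma (11.2% of all genes). Of these 4, 0 had an adjusted p under 0.05 (0.625% of all genes), and the median log2 fold change was -0.59. The unadjusted p stayed under 0.05 in 7 of the 13 alternatives for Cd5l and in 7 for Marco. Their log2 fold changes were -0.67 and -0.51, and -0.51 and -0.34 without MC-21 replicate 4. Sgk1 ran with the Kupffer cell sum (r = 0.78, rho = 0.68, and r = 0.67 without the 2 libraries farthest from the median). Fkbp5 (-0.70, -0.46 and -0.38) and Klf9 (-0.67, -0.50 and -0.60) ran against it. The part of Kupffer cell RNA in these values was not tested. The 7 lymphocyte markers summed to at most 20.7 RPKM, with Nkg7 the most abundant by the mean over all libraries and Cd79a, Ms4a1 and Klrb1c at 0 in at least 1 library. Of the 4 tested, 2 were lower at an unadjusted p under 0.05 in limma (11.2% of all genes), Cd3d among them with no overlap between the groups (10.2% of all genes), and 0 had an adjusted p under 0.05 (0.625% of all genes), with a median log2 fold change of -0.63. The unadjusted p of Cd3d stayed under 0.05 in 6 of 12 alternatives, with log2 fold changes of -0.80 to -0.35.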

How the data were processed

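The authors aligned 3′ RNA-seq reads with HISAT 0.1.5 against mm9 and, after SAMtools, computed gene RPKM with Partek 6.6. These RPKM values were deposited. The annotation and the handling of reads with several matches are not given in the sources used here. Reads per RPKM were recovered from the steps of low values in 631 genes, and 77.8% of 3071 low values came within 0.1 read of a whole number, so depth and read numbers are estimates.

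Values were tested as log2(RPKM + 1), without further scaling, for 9594 genes averaging 1 RPKM or more, with limma 3.58.1 (lmFit, eBayes with trend) in R 4.3.3 and Benjamini-Hochberg adjustment over all of them. Fold changes on this scale understate those of low genes. Cd163 was compared with an exact permutation test over the 35 splits. The labels give 1 library per liver and nothing further on how the mice were kept apart, so p-values measure the spread between these libraries. The members and lists were chosen with earlier results of these data known. List genes were named if the adjusted p was under 0.05, if the groups did not overlap with a log2 difference of at least 1, or as the 2 most abundant of a list, and genes outside this rule were picked after their values were seen, or are named for a count, a role or as markers at 0. Alternatives were a pseudocount of 0.1, no filter, a minimum mean of 5 RPKM, quantile normalization, median centring, eBayes without trend, and leaving out each library in turn. Coordinates and sequences came from the mm9 genome with its gene annotation and, for promoters, from RefSeq. Python 3.11.15, scipy 1.17.1 and matplotlib 3.10.9 were used.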

Additional observations from a re-analysis of the deposited data

Results flagged for a closer look

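Among 109 genes, the 8 members and the tested genes of the lists, 7 had 1 PBS library that stood apart from the other 3 by more than Dixon's 95% critical value for 4 samples, and chance alone marks about 1 group in 20. The coregulator gene Smarca4 was highest in PBS replicate 8 with 21.1 RPKM, against 15.1 RPKM in the next library. Zfp36, of the glucocorticoid-induced list, was lowest in the same library with 1462 RPKM, against 1969 RPKM in the next. The Kupffer cell marker Marco was highest there with 41.1 RPKM, against 33.3 RPKM in the next, and so was Cxcr4, of the induced list, with 224 RPKM against 175 RPKM. In PBS replicate 5, Mt2 was highest with 917 RPKM, against 501 RPKM in the next, and the cell cycle inhibitor gene Cdkn1a with 154 RPKM, against 117 RPKM. The macrophage marker C1qc was lowest in PBS replicate 7 with 67.4 RPKM, against 78.1 RPKM in the next. None of the 8 genes of the receptor and its targets was marked in this way.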

How the results depend on the processing

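Under the 13 alternatives the log2 fold changes of Fkbp5 (0.95 to 1.33), Klf9 (0.47 to 0.66), Sgk1 (-0.75 to -0.36), Nr3c1 (-0.41 to -0.04) and Errfi1 (-0.57 to -0.12, 12 alternatives) kept their direction. The number of members with an unadjusted p under 0.05, which was 3, was 2 with median centring, without PBS replicate 5 and without MC-21 replicate 4, in each case without Sgk1 (log2 fold change -0.41, -0.45 and -0.36). Of the 7 members tested, 0 had an adjusted p under 0.05 in limma, and this was 1, Fkbp5, with a mean of at least 5 RPKM and 1, again Fkbp5, with median centring. The adjusted p of Fkbp5 was between 0.0428 and 0.17 over all alternatives. The number of members meeting the study's cutoffs (unadjusted p under 0.05, 2-fold) was 0 to 1 over the fits that leave out 1 library, and it was 0 without MC-21 replicate 4. Over the same fits the log2 fold change of Tsc22d3 lay between -0.06 and 0.27, and that of Ddit4 between -0.36 and 0.08. The cause was not tested. Of the other glucocorticoid-induced genes, 5 to 8 were higher at an unadjusted p under 0.05 under the alternatives, where 2.86% to 7% of all genes were. The number of them tested was 25 in the main setting, 22 with a mean of at least 5 RPKM and 29 without a filter. It was 26 without PBS replicate 5 and 26 without MC-21 replicate 4. The number higher was 8 with median centring (7% of all genes), 8 with quantile normalization (5.99%) and 8 without PBS replicate 7 (3.14%). No paired analysis was possible because the PBS and MC-21 livers share no replicate number. Errfi1 and Cd163 are limited by depth, with at most 20 and 12 estimated reads in a library.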
